A study of Mus musculus with 13 samples.

Results

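The collagen genes of the mouse liver were examined in mice with an amino acid substitution at position 522 of SIRT1, an NAD-dependent protein deacetylase. Members were the array probes whose gene name in the scanner files began with Col, a number, the letter a and another number. This rule took 82 of 41174 non-control probes and 41 of 27671 gene names. Of these names, 1 (Col4a3bp) belongs to the ceramide transfer protein, a lipid carrier that is no collagen, and was counted apart. The other 40 genes, on 78 probes, were 11 fibrillar collagens, 6 basement membrane collagens and 23 collagens of other types. Another 4 probes under older names, which RefSeq assigns to Col6a6, Col6a4, Col26a1 and Col11a1, lay outside the rule and were not used.

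RNA came from the livers of 13 male mice on a C57BL/6 strain background, all fed a western-style high fat diet over 5 months. TEKI mice (n = 3) carried the SIRT1 TE KI allele, which puts glutamate in the place of threonine 522, TAKI mice (n = 5) carried the SIRT1 TA KI allele, which puts alanine there, and WT mice (n = 5) carried WT SIRT1. Alanine cannot be phosphorylated, and glutamate carries a negative charge like that of a phosphate. The comparisons thus set either substitution against the native threonine. Every group had the diet, so no liver on standard chow entered the comparisons, while age and the number of knock-in copies were not given in the sources used here. A separate 1-colour Agilent array served each liver.

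Collagens are triple-helical proteins of the extracellular matrix. Fibrillar collagens (types I, II, III, V, XI, XXIV and XXVII) assemble into banded fibrils, and in the liver hepatic stellate cells and portal fibroblasts are the main makers of types I, III and V. Type IV forms the sheet-like network of basement membranes. The remaining types coat fibrils, form beaded or short-chain networks, span the cell membrane or, as with types XV and XVIII, carry heparan or chondroitin sulphate chains at basement membranes. Scarring of the fatty liver is marked by deposits of types I and III, so that their transcripts are common readouts of fibrosis.

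A level is given here as log2 of the processed intensity minus the 75th percentile of the same array, and each gene is read through the brightest of its probes. Probes differ in brightness for reasons other than abundance, so that levels were compared between livers and never between genes. A difference is the log2 difference of group means with its standard error (SE) from 1 limma model over the 13 arrays. The adjusted p is Benjamini-Hochberg over 20390 genes tested, and a gene was called at an adjusted p under 0.05. A gene was tested where its probe was well above background on at least 3 arrays.

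Of the 40 collagen genes, 35 were tested, 30 of them well above background on every array, and no collagen probe was saturated. Between 59.8% and 72.6% of all probes were well above background on 12 arrays, against 86.5% on the array of TEKI1, which also had 87 spots of uneven signal where the others had 1 to 6. Slide 3 held all TEKI arrays with WT5, slides 1 and 2 the other WT arrays, and slides 4 and 5 the TAKI arrays. No slide held a TAKI array with one of another genotype, so for TAKI the slide and the genotype cannot be told apart. Sirt1 itself, whose probe does not report the substitution, averaged 0.30 ± 0.25 in TEKI livers and 0.38 ± 0.23 in TAKI livers, against 0.39 ± 0.12 in WT livers (SD, n = 3, 5 and 5), and was not called in TEKI minus WT or TAKI minus WT (adjusted p = 0.877 and 0.984). All 5 hepatocyte markers on the array, albumin among them, were well above background in every liver, and no member of the list was called. The labels count animals as separate samples but name no litters or days, so the tests measure the spread between these animals.

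Most collagen genes did not pass the test in any comparison, and 1 did in TAKI livers. Col9a2, a chain of the fibril-associated type IX collagen, was 2.81-fold higher in TAKI than in WT livers. In TAKI minus WT, 1 of 35 collagen genes was called higher and 0 lower, against 2.82% of all genes tested called in either direction (1.88% higher, 0.942% lower). In TEKI minus WT, limma called 0 of 35 at the same threshold, against 0.0049% of all genes, and 1 collagen had an unadjusted p under 0.05, against 11.6% of all genes. In TEKI minus TAKI, Col9a2 was called lower and 0 were called higher, against 3.45% of all genes in either direction and 0.976% lower. Each count of collagens called lies near its background, while the count with an unadjusted p under 0.05 in TEKI minus WT lies below its background. The split of all genes called moved with the scaling: in TEKI minus TAKI it was 505 higher and 199 lower, and 521 and 503 with median scaling or 495 and 635 with quantile normalization. In TAKI minus WT it was 383 higher and 192 lower, and 139 and 333 with the normexp background. WT livers serve both knock-in comparisons, and TEKI minus TAKI shares its TAKI livers with TAKI minus WT, so the comparisons are not independent.

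Without TEKI1, the array that stood apart, the counts of collagens called were 3 in TAKI minus WT (Col22a1, Col4a6 and Col9a2), 0 in TEKI minus WT and 3 in TEKI minus TAKI (the same names). More of all genes were called as well: 1312 of 20390 in TAKI minus WT, 3 of 20389 in TEKI minus WT and 1099 of 20389 in TEKI minus TAKI. The median difference of the 10 fibrillar genes tested was -0.07 in TEKI minus WT and -0.03 in TAKI minus WT. For the 5 basement membrane genes it was 0.01 and -0.01, and for the 20 others 0.12 and 0.05, in the same order. The medians over all genes tested were 0.07 for TEKI minus WT and 0.00 for TAKI minus WT. With arrays scaled to their medians instead, TEKI minus WT had a median over all genes of -0.36, and class medians of -0.50, -0.41 and -0.31. The class medians of TEKI minus WT thus moved by about as much as the median over all genes, and only the fibrillar median lay below 0 under both scalings.

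**Figure D1:**
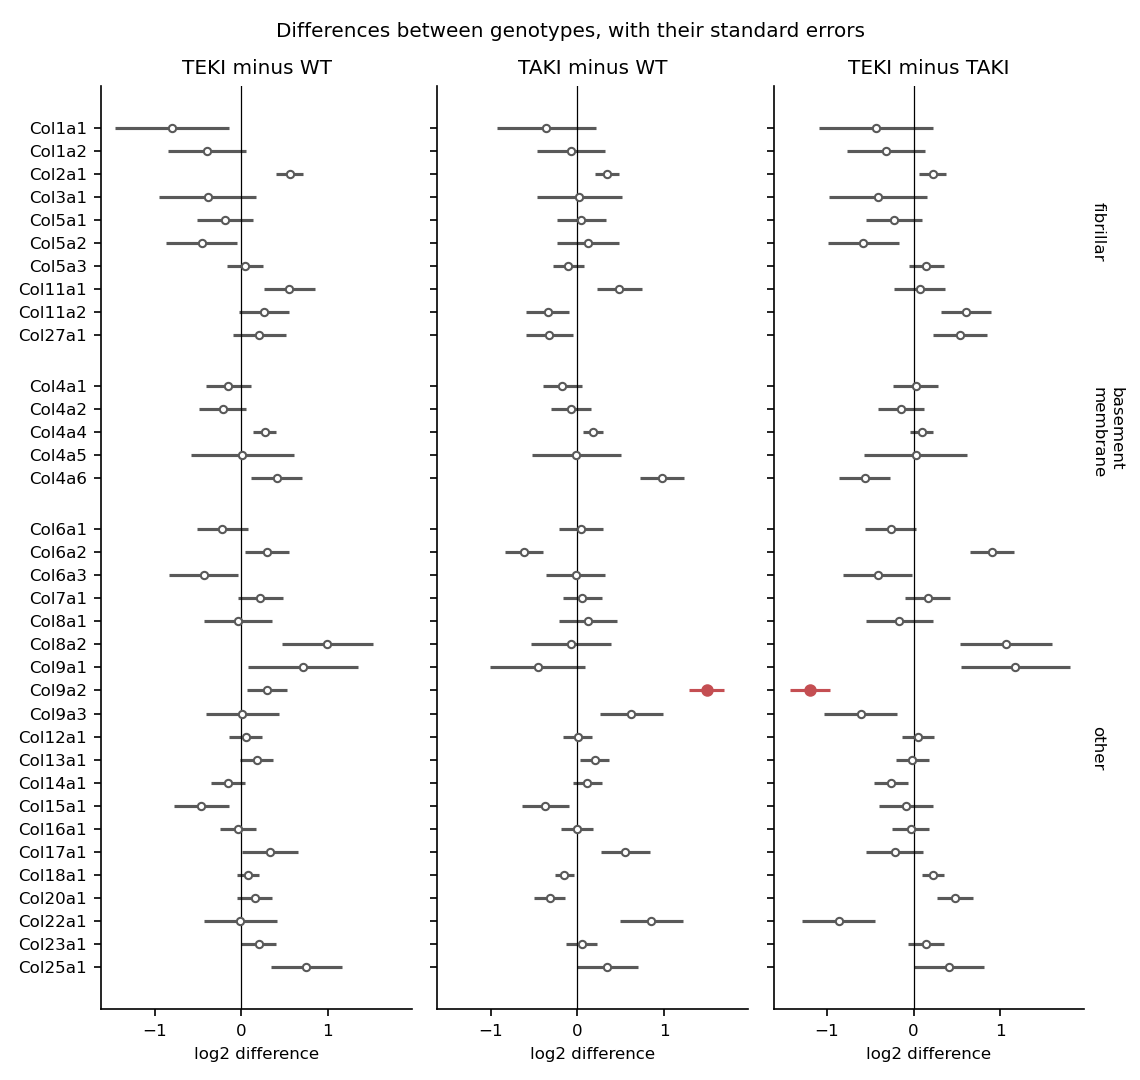
Log2 difference from WT of each collagen gene tested, in TEKI and in TAKI livers, and of TEKI from TAKI livers, with a bar for 1 standard error of the limma model to each side and genes grouped by class. Filled points were called: Col9a2 at 1.49 in TAKI minus WT and at -1.19 in TEKI minus TAKI.

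Type I collagen, the main fibril former of scar tissue, is built from the chains of Col1a1 and Col1a2. Neither differed beyond the spread between livers. The level of Col1a1 (chr11:95060800-95060859 on the + strand, build mm7) was 0.99, 1.87 and 0.17 in TEKI livers and -0.76, 2.11, 1.45, 2.46 and 1.98 in TAKI livers, against 2.02, 2.05, 2.23, 1.98 and 0.75 in WT livers. TAKI1, TEKI3, WT5 and TEKI1 were the 4 lowest of the 13 livers, TAKI4 was the highest, and the 3 genotypes overlapped. The difference was -0.80 ± 0.66 for TEKI minus WT and -0.36 ± 0.57 for TAKI minus WT (SE, adjusted p = 0.670 and 0.845). With a 95% interval of -2.23 to 0.64 for TEKI minus WT and -1.60 to 0.88 for TAKI minus WT, differences of either sign remain possible at these group sizes.

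Col1a2 (chr6:4493505-4493564 on the + strand) encodes the other type I chain, and its level was 2.83, 3.52 and 2.31 in TEKI livers and 1.78, 3.66, 3.10, 3.87 and 3.59 in TAKI livers, against 3.30, 3.27, 3.82, 3.45 and 2.56 in WT livers. The order of the livers resembled that of Col1a1, with TAKI1 lowest and TAKI4 highest. The difference was -0.39 ± 0.45 for TEKI minus WT and -0.08 ± 0.39 for TAKI minus WT (SE, adjusted p = 0.790 and 0.959). Without TAKI1 the TAKI differences were 0.19 for Col1a1 and 0.28 for Col1a2, of opposite sign to those with it. The sign for Col1a2 also turned without WT3, to 0.0581, and both chains turned under other settings, so that neither has a settled direction in TAKI livers.

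Col3a1 (chr1:45585395-45585454 on the + strand), whose product forms the thinner reticular fibres that run through the liver lobule, had levels of 2.22, 3.09 and 1.84 in TEKI livers and 1.04, 3.22, 2.42, 3.95 and 3.36 in TAKI livers, against 2.93, 3.21, 3.07, 2.76 and 1.88 in WT livers. TAKI1 was again lowest and TAKI4 highest. The difference was -0.39 ± 0.57 for TEKI minus WT and 0.02 ± 0.49 for TAKI minus WT (SE, adjusted p = 0.849 and 0.991). Type V collagen sits inside type I fibrils and limits their width. Its Col5a1 chain (chr2:28044683-28044742 on the + strand) stood at -0.34, 0.32 and -0.31 in TEKI livers and -0.77, 0.09, 0.07, 0.75 and 0.48 in TAKI livers, against 0.04, 0.19, 0.45, 0.26 and -0.57 in WT livers. Its Col5a2 chain (chr1:45613427-45613486 on the - strand) stood at -3.07, -2.64 and -4.12 in TEKI livers and -3.68, -2.50, -2.81, -1.94 and -2.56 in TAKI livers, against -2.67, -2.26, -2.73, -2.89 and -3.55 in WT livers. For both chains the genotypes overlapped and TAKI4 was the highest liver. For Col5a1 the difference was -0.18 ± 0.32 in TEKI minus WT and 0.05 ± 0.28 in TAKI minus WT, and for Col5a2 -0.46 ± 0.41 and 0.12 ± 0.36 in the same order (SE, adjusted p from 0.703 to 0.964).

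**Figure D2:**
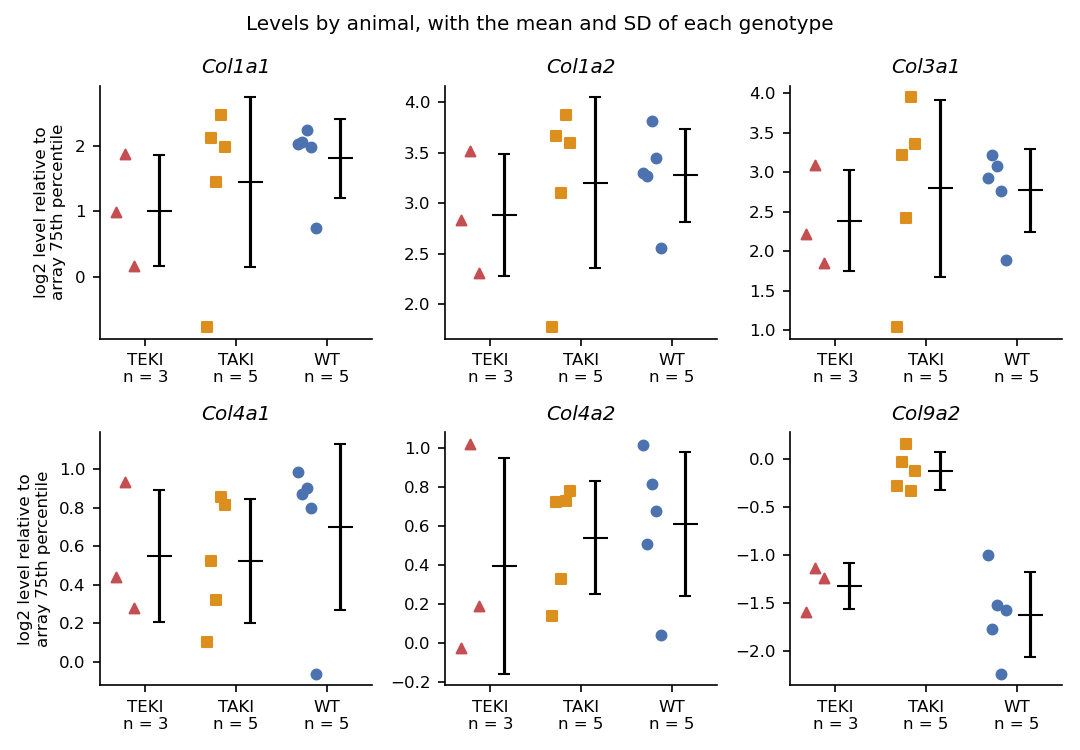
Level of 6 collagen genes in each liver (log2 intensity minus the 75th percentile of the array), with TEKI, TAKI and WT from left to right, a point per liver, and the mean and SD of the genotype beside the points. The TAKI points of Col9a2 lie between -0.34 and 0.15, above every WT and TEKI point, while the points of Col1a1, Col1a2, Col3a1, Col4a1 and Col4a2 overlap.

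Most collagens varied more between livers of the same genotype than the median gene did. Over the 15508 genes well above background on all arrays, the median within-genotype SD was 0.22 and the 90th percentile 0.54. Of the 30 collagen genes measured on all arrays, 27 lay above that median and 8 above that 90th percentile. The 8 were the fibrillar genes Col1a1, Col1a2, Col3a1 and Col5a2, and Col6a3, Col8a1, Col22a1 and Col25a1 of other classes, while Col18a1, Col4a4 and the fibrillar Col2a1 lay below the median. The within-genotype SD was 0.97 for Col1a1, 0.83 for Col3a1 and 0.67 for Col1a2, against 0.16 for Col18a1 and 0.17 for Col4a4. This spread sets how small a difference between genotypes could be called for each gene.

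TAKI1 was the lowest of the 13 livers for 11 of the 30 genes, TAKI4 the highest for 9 and TEKI1 the highest for 8. In 10 of the 30 (33.3%), namely Col1a1, Col1a2, Col3a1, Col4a2, Col5a1, Col5a2, Col6a1, Col6a3, Col14a1 and Col16a1, the 4 lowest livers were TAKI1, WT5, TEKI1 and TEKI3. The same held for 264 of 15483 genes (1.71%) measured on all arrays and with a value on each. These livers were singled out after their values were seen, so this is a description of the 13 arrays and not a test. The 4 livers belong to each of the 3 genotypes.

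**Figure D3:**
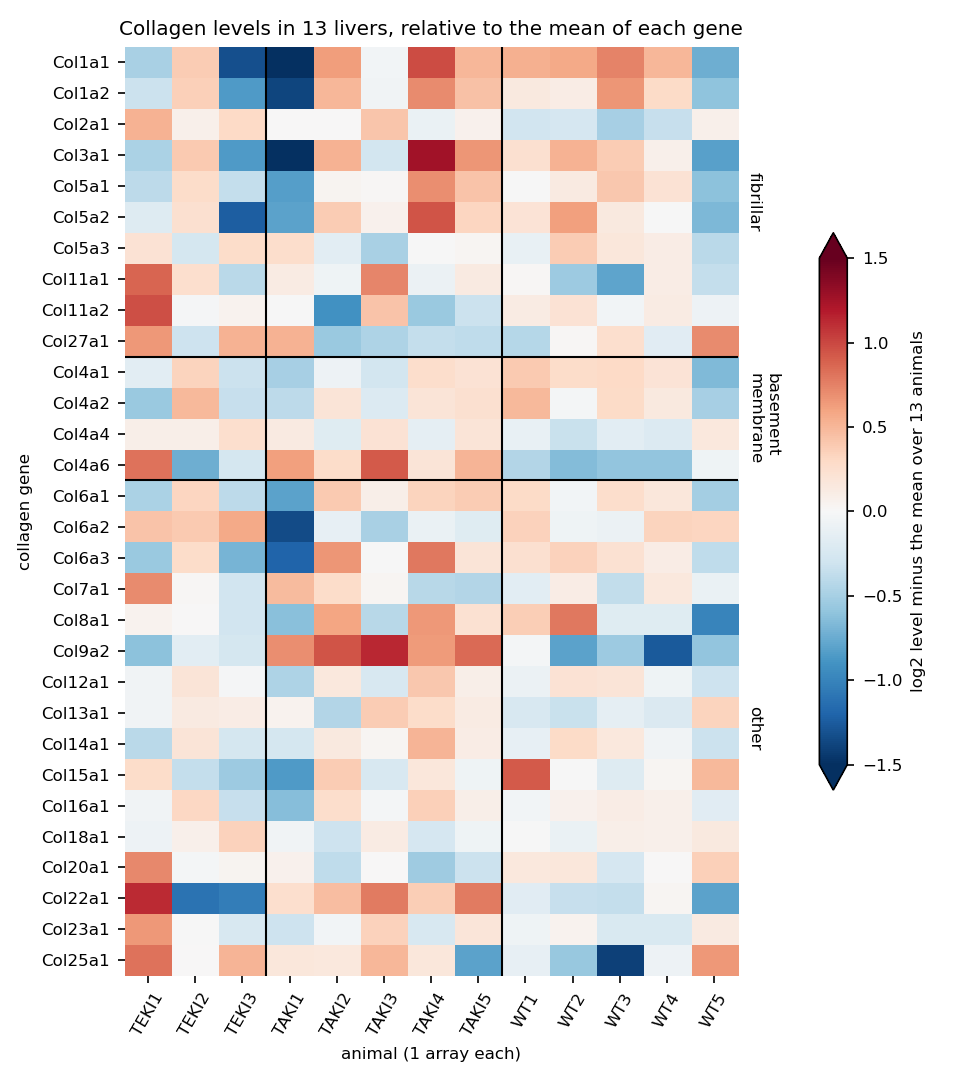
Level of the 30 collagen genes well above background on all arrays, as the log2 difference from the mean of the same gene over the 13 livers (red above, blue below), with genes in rows by class and livers in columns from TEKI through TAKI to WT. Col1a1, Col1a2, Col3a1, Col5a1 and Col5a2 are blue together in TEKI1, TEKI3, TAKI1 and WT5, and Col9a2 is red in all 5 TAKI livers and blue or near 0 in the others.

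Across the 13 livers 9 pairs of genes were set against each other, some of them chains of 1 molecule and the others Col1a1 with another collagen or with a gene of its surroundings. For Col1a1 and Col1a2 r was 0.98, rho was 0.90 and r was 0.95 without TAKI1 and TEKI3, the 2 livers farthest from the median of Col1a1. Centred within genotype, r was 0.99, with a permutation p adjusted over the 9 pairs of 3e-05 for the uncentred r. For Col1a1 and Col3a1 r was 0.95, rho was 0.84 and r was 0.92 without TAKI1 and TEKI3. For Col5a1 and Col5a2 r was 0.83, rho was 0.75 and r was 0.72 without TAKI1 and TAKI4. The centred r of these pairs was 0.97 and 0.83, so the relation was also there between livers of 1 genotype. For Col4a1 and Col4a2, chains of the same type IV molecule whose genes RefSeq places head to head on chromosome 8 with 5' ends that overlap by 22 bases, r was 0.87, rho was 0.87 and r was 0.82 without TAKI1 and WT5. Across the families, for Col1a1 and Col4a1 r was 0.81, rho was 0.71 and r was 0.84 without TAKI1 and TEKI3.

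Of the type VI chains, Col6a1 and Col6a3 followed Col1a1, with an r of 0.92 and 0.96, and Col6a2 had an r of 0.34 with it (adjusted permutation p over 29 genes = 0.322). For Col6a1 and Col6a2 r was 0.22, rho was -0.17 and r was -0.49 without TAKI1 and WT5 (permutation p of the first = 0.487). Centred within genotype, r of that pair was 0.61 (permutation p = 0.111). Col1a1 and Serpinh1, whose product HSP47 is the chaperone of procollagen in the endoplasmic reticulum, had an r of 0.93 and a rho of 0.92. For Col1a1 and Acta2, the smooth muscle actin of activated stellate cells, r was 0.60 and rho 0.58 (adjusted permutation p of r = 0.0326), and r was 0.53 without TAKI1 and TEKI3. A planned pair of Col1a1 with Lox, a lysyl oxidase, was not computed because the Lox probe was well above background on 5 arrays. No slide held 6 livers, so none of these relations could be computed within a slide.

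Against Col1a1, 14 of the other 29 collagen genes had an adjusted permutation p of r under 0.05, 12 of them positive and 2 negative (Col4a4 and Col27a1). Centred within genotype, 13 of 29 passed, 12 positive and 1 negative (Col27a1). The positive 12 span classes: Col1a2, Col3a1, Col5a1 and Col5a2 among fibrillar genes, Col4a1 and Col4a2 in the basement membrane, and Col6a1, Col6a3, Col8a1, Col12a1, Col14a1 and Col16a1 among the others. Col9a2 was not among them, with an r of -0.05. No share of all genes that pass against Col1a1 is given beside these counts, so they are not read as particular to collagens. Genes on 1 array share the liver, the labelling and the scan, and these p-values do not separate such shared sources from each other.

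**Figure D4:**
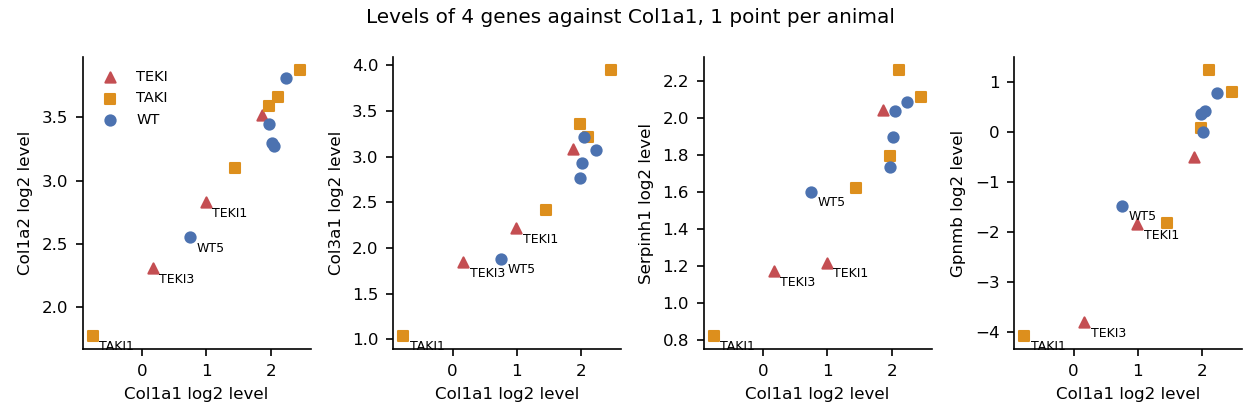
Level of Col1a1 in each liver (x axis, log2 intensity minus the 75th percentile) against the levels of Col1a2, Col3a1, Serpinh1 and Gpnmb in the same liver (y axes, same unit), 1 point per liver, coloured by genotype. All 4 genes are higher in livers with more Col1a1, and TAKI1, at -0.76 for Col1a1, is the lowest point of each panel.

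Of the 4 livers lowest in Col1a1, 3 were also the lowest of their genotype in macrophage transcripts, among other lists of genes. Gpnmb, a transmembrane glycoprotein of lipid-laden macrophages, had levels of -1.84, -0.50 and -3.81 in TEKI livers and -4.08, 1.23, -1.82, 0.80 and 0.07 in TAKI livers, against 0.00, 0.42, 0.77, 0.36 and -1.47 in WT livers. Its r with Col1a1 was 0.95 and its rho 0.95, with an r of 0.89 without TAKI1 and TEKI3. Over the 7 macrophage markers tested, the mean level relative to the WT mean was -0.12, 0.15 and -1.46 in TEKI1 to TEKI3 and -1.17, 0.75, -0.15, 0.30 and 0.09 in TAKI1 to TAKI5, against 0.16, 0.15, 0.54, -0.15 and -0.69 in WT1 to WT5. TEKI3, TAKI1 and WT5 were the lowest of their genotypes. The same livers were also lowest of their genotypes in the mean of the 6 cholangiocyte markers, at -0.41 in TEKI3, -0.66 in TAKI1 and -0.58 in WT5 relative to the WT mean. They were so too in the mean level of the pathway lists of crosslinking, receptors, degradation, fibril partners, basement membrane partners and the TGF-beta axis. The summed level, in which bright members weigh most, kept this order for receptors only. By it TEKI1 lay below TEKI3 for crosslinking (6.65 against 6.77) and fibril partners (6.80 against 6.89). The same held for basement membrane partners (5.06 against 5.17) and the TGF-beta axis (4.80 against 4.96). For degradation WT1 (5.928) lay below WT5 (5.939) in the summed level. For degradation the means were -0.69 in TEKI3, -0.98 in TAKI1 and -0.50 in WT5. In the list of hydroxylases and chaperones TEKI1 lay below TEKI3. The order of these livers was thus not particular to macrophage markers. The summed level of the macrophage markers, on the log2 scale, ranged from 6.22 to 7.40 in TEKI livers and 6.57 to 7.52 in TAKI livers, against 6.54 to 7.25 in WT livers, and all 7 markers were tested and 0 called in any comparison. Of the 7, Clec4f was lowest in TEKI3 among TEKI livers but did not follow in the other genotypes. It stood at 4.36 in TAKI1 and 4.29 in WT5, above TAKI4 at 4.09 and WT4 at 4.00. Each other macrophage marker was lowest of its genotype in TEKI3, TAKI1 and WT5.

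The 13 markers of stellate cells and myofibroblasts moved less. Their mean relative to WT was -0.01, 0.35 and -0.21 in TEKI livers and -0.24, 0.27, 0.14, 0.20 and 0.02 in TAKI livers, against -0.01, -0.04, 0.19, 0.08 and -0.22 in WT livers, with TAKI1, TEKI3 and WT5 again lowest in their genotypes. The summed level ran from 4.93 to 5.55 in TEKI livers and 4.80 to 5.41 in TAKI livers, against 5.05 to 5.24 in WT livers, and 0 of 13 were called. By this sum the lowest TEKI liver was TEKI1 (4.93) and not TEKI3 (5.10). Single markers also departed from the mean: Tagln was 3.77 in WT5, above the other WT livers. Des was -2.36 in TAKI1, above TAKI5 at -2.79. The mean of the 5 hepatocyte markers ran the other way in TEKI3, TAKI1 and WT5, at 0.39, 0.16 and 0.25 relative to WT, the highest of each genotype. Not every marker followed its mean. Ttr was 4.42 in TAKI1, below TAKI5 at 4.88, and 4.42 in WT5, below WT2 at 4.46. Fgb was 9.51 in WT5, below WT1 at 9.60. In bulk RNA, fewer cells of a type and less RNA per cell cannot be told apart, and the part of these markers in the collagen levels was not tested.

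Sequence was examined upstream of the genes that varied together. RefSeq windows of 250 bases before the start site (build GRCm38.p6) were at hand for 32 of the 40 collagen genes, in 35 windows. Shown are Col1a2 and Col3a1, fibrillar genes with an r of 0.98 and 0.95 with Col1a1, and Col6a3, a gene of another class with an r of 0.96. Capitals mark the letters searched on both strands: CCAAT (the CCAAT box), TATAAA (the TATA box) and GGGCGG (the GC box, bound by Sp1-family factors). None of these motifs overlaps another.
Col1a2 (chr6:4505368-4505617, + strand): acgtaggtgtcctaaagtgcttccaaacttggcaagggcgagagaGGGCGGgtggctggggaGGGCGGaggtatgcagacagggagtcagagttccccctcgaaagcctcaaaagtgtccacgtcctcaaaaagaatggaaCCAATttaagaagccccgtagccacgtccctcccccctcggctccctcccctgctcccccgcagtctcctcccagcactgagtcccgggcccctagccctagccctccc
Col3a1 (chr1:45311288-45311537, + strand): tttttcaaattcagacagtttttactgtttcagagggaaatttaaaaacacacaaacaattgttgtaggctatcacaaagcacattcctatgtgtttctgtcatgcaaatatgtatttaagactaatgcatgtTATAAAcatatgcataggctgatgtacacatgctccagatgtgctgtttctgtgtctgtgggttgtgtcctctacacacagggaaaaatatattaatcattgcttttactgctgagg
Col6a3 (chr1:90843972-90844221, - strand): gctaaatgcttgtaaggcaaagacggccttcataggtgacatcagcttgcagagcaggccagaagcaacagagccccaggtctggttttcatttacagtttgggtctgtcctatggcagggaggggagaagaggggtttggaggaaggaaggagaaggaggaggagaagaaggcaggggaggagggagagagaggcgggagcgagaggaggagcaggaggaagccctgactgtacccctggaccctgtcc
In Col1a2 the CCAAT match lay 109 bases before the start and the GC matches 205 and 188 bases before it, in Col3a1 the TATA match lay 117 bases before the start, and Col6a3 held none of the 3. Of the 35 collagen windows, 12 (34.3%) held CCAAT, 5 (14.3%) TATAAA and 19 (54.3%) GGGCGG. Of 32851 mouse windows of the same length, 33.8%, 12.4% and 32.7% held them, in the same order. No motif of this search was common to the 3 windows.

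The fibrillar collagens best known from cartilage were measured as well. Col2a1, the type II chain of hyaline cartilage, was read on a probe at chr15:97979257-97979316 on the - strand, with levels of -0.25, -0.70 and -0.48 in TEKI livers and -0.77, -0.77, -0.36, -0.88 and -0.72 in TAKI livers, against -1.07, -1.03, -1.28, -1.13 and -0.70 in WT livers. All 3 TEKI and all 5 TAKI livers lay above 4 of the 5 WT livers, WT5 being the exception, and the groups overlapped. The difference was 0.56 ± 0.16 for TEKI minus WT and 0.34 ± 0.14 for TAKI minus WT (SE, adjusted p = 0.390 and 0.253). The unadjusted p of 0.0039 for TEKI minus WT was the smallest of the collagens in that comparison.

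A second probe of Col2a1, spotted 10 times on each array, overlaps the first by 40 bases. Both lie on the - strand of chromosome 15, at chr15:97979257-97979316 for the brightest and chr15:97979237-97979296 for the second (mm7), and the capitals mark the shared bases.
Col2a1 brightest probe: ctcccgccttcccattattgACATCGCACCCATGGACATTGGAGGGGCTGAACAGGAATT
Col2a1 probe with 10 spots: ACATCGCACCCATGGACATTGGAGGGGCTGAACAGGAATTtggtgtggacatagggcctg
Over the 10 spots, which lie in rows 10 to 498 of the array, TEKI minus WT ranged from -0.50 to 0.17 and TAKI minus WT from 0.12 to 0.42. The TEKI difference of 0.56 from the brightest probe lay outside the range of the repeated probe, while the TAKI difference of 0.34 lay inside it. That range reflects the place on the array and not the spread between livers, so it does not show that the probes agree. Across the 13 livers the 2 probes had an r of -0.09. The within-genotype SD was 0.76 for the repeated probe and 0.21 for the brightest. Averaged over its spots, the repeated probe gave 0.24 ± 0.45 (SE) in TAKI minus WT. The lowest TEKI value among the spots was -2.99, on TEKI2 in row 10. The 10 spots of the Col1a1 probe, in rows 30 to 449, ranged from -0.84 to -0.76 in TEKI minus WT and from -0.41 to -0.25 in TAKI minus WT, so for Col1a1 the place on the array changed little.

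**Figure D5:**
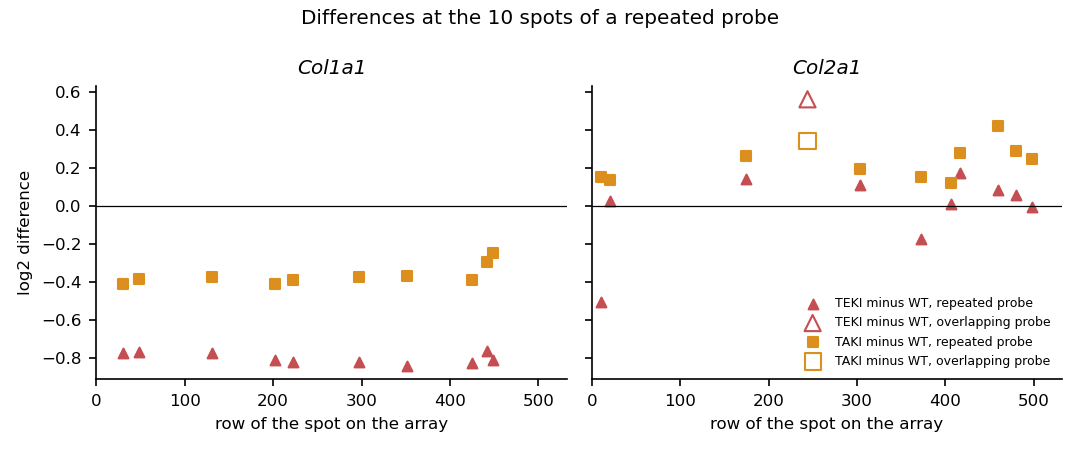
Difference from WT at each of the 10 spots of the Col1a1 probe and of the repeated Col2a1 probe, against the row of the spot on the array, for TEKI and TAKI livers. The Col1a1 points stay within -0.84 to -0.76 (TEKI) and -0.41 to -0.25 (TAKI), and the Col2a1 points spread from -0.50 to 0.42.

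Type XI collagen nucleates the fibrils of cartilage. Its Col11a1 chain (chr3:113974545-113974604 on the + strand) had levels of -2.72, -3.35 and -4.01 in TEKI livers and -3.48, -3.66, -2.86, -3.68 and -3.47 in TAKI livers, against -3.58, -4.15, -4.40, -3.48 and -3.96 in WT livers. Its Col11a2 chain (chr17:32145178-32145237 on the + strand) had levels of -2.66, -3.64 and -3.57 in TEKI livers and -3.63, -4.53, -3.19, -4.18 and -3.95 in TAKI livers, against -3.50, -3.41, -3.66, -3.50 and -3.70 in WT livers. Neither was called, and all groups overlapped: Col11a1 differed by 0.55 ± 0.30 in TEKI minus WT and 0.48 ± 0.26 in TAKI minus WT, and Col11a2 by 0.26 ± 0.29 and -0.34 ± 0.25 (SE, adjusted p from 0.432 to 0.771). TAKI3 stood above the other TAKI livers for Col11a1.

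Col5a3, a chain of a type V variant, and Col27a1, a fibrillar collagen of growing cartilage, completed the class. Col5a3 (chr9:20639940-20639999 on the - strand) had levels of 1.67, 1.20 and 1.74 in TEKI livers and 1.73, 1.30, 0.97, 1.45 and 1.49 in TAKI livers, against 1.35, 1.84, 1.63, 1.57 and 1.06 in WT livers. The groups lay on top of one another, with differences of 0.05 ± 0.21 in TEKI minus WT and -0.10 ± 0.18 in TAKI minus WT (SE, adjusted p = 0.962 and 0.864). Col27a1 (chr4:62768147-62768206 on the + strand) had levels of -1.13, -2.08 and -1.26 in TEKI livers and -1.26, -2.33, -2.24, -2.13 and -2.15 in TAKI livers, against -2.21, -1.75, -1.52, -1.95 and -1.07 in WT livers. Here TAKI1, TEKI1, TEKI3 and WT5 were the 4 highest livers, the reverse of Col1a1, and its r with Col1a1 was -0.71. The difference was 0.21 ± 0.31 for TEKI minus WT and -0.32 ± 0.27 for TAKI minus WT (SE, adjusted p = 0.852 and 0.661). The last fibrillar gene, Col24a1, was well above background on 1 array and was not tested.

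In the basement membrane class no gene was called. Col4a1, the chain that with Col4a2 makes the common type IV network, had levels of 0.44, 0.93 and 0.28 in TEKI livers and 0.10, 0.52, 0.32, 0.86 and 0.81 in TAKI livers, against 0.99, 0.87, 0.90, 0.80 and -0.06 in WT livers. WT5 was the lowest of the 13 livers and the other 4 WT livers lay at 0.80 or above. The difference was -0.15 ± 0.26 for TEKI minus WT and -0.18 ± 0.22 for TAKI minus WT (SE, adjusted p = 0.877 and 0.798). Its probe ends lie at chr8:11167857-11169691 (- strand), a span longer than the probe.

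Col4a2 (chr8:11416851-11416910 on the + strand) had levels of -0.03, 1.02 and 0.19 in TEKI livers and 0.14, 0.72, 0.33, 0.73 and 0.78 in TAKI livers, against 1.02, 0.51, 0.82, 0.68 and 0.04 in WT livers. TEKI livers held both the highest (TEKI2) and the lowest (TEKI1) value. The difference was -0.22 ± 0.27 for TEKI minus WT and -0.07 ± 0.23 for TAKI minus WT (SE, adjusted p = 0.815 and 0.933). Of the same slide as the TEKI arrays, WT5 was the only WT liver. Set against WT5 alone, TEKI minus WT was 0.61 for Col4a1, 0.36 for Col4a2, 0.26 for Col1a1, 0.33 for Col1a2 and 0.50 for Col3a1, each of opposite sign to the value against all 5 WT livers (adjusted p = 0.9999). The slide and the low collagen level of WT5 cannot be told apart in these values.

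Col4a4 (chr1:82661529-82661590 on the - strand), a chain of the type IV network of the kidney filter, had levels of -0.79, -0.80 and -0.64 in TEKI livers and -0.75, -1.07, -0.67, -1.02 and -0.69 in TAKI livers, against -1.00, -1.21, -1.04, -1.09 and -0.72 in WT livers. The difference was 0.27 ± 0.13 for TEKI minus WT and 0.18 ± 0.12 for TAKI minus WT (SE, adjusted p = 0.454 and 0.559). It was among the least variable collagens. Col4a6 (chrX:135831206-135831265 on the - strand), the partner of Col4a5 in smooth muscle and epithelial basement membranes, had levels of 0.45, -1.09 and -0.63 in TEKI livers and 0.26, -0.08, 0.56, -0.17 and 0.15 in TAKI livers, against -0.80, -1.02, -0.96, -0.96 and -0.42 in WT livers. All 5 TAKI livers lay above all 5 WT livers, while the TEKI livers spread from the lowest of the 13 to the second highest. The difference was 0.97 ± 0.26 in TAKI minus WT and 0.41 ± 0.30 in TEKI minus WT (SE, adjusted p = 0.0715 and 0.613), so that it missed the threshold. Without TEKI1 the TAKI difference passed (adjusted p = 0.00558). Another probe of Col4a6, well above background on 8 arrays, gave 0.23 in TAKI minus WT. Col4a5 was well above background on 7 arrays and differed by 0.01 ± 0.60 in TEKI minus WT and -0.01 ± 0.52 in TAKI minus WT (SE, adjusted p = 0.997 and 0.996), and Col4a3 was so on 2 arrays and was not tested.

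Groups that did not overlap were counted for all 35 genes. Between TAKI and WT livers, 4 genes had no overlap (Col9a2, Col4a6 and Col22a1 above WT, Col6a2 below), against 7.5% of all genes tested. In TEKI minus WT it was 1 gene (Col6a2), against 3.93%, and in TEKI minus TAKI 2 (Col9a2 and Col6a2), against 8.29%. Unadjusted p-values under 0.05 numbered 5 in TAKI minus WT, against 14.7% of all genes, and 3 in TEKI minus TAKI, against 12.1%.

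Col9a2 was the only collagen called in any comparison under the settings of the main model. Type IX collagen is a fibril-associated collagen that coats type II fibrils in cartilage, and Col9a2 encodes its alpha 2 chain. On its single probe (chr4:120495071-120495130 on the + strand), levels were -1.59, -1.13 and -1.23 in TEKI livers and -0.28, -0.03, 0.15, -0.34 and -0.13 in TAKI livers, against -1.00, -1.77, -1.52, -2.23 and -1.57 in WT livers. Every TAKI liver lay above every TEKI and every WT liver, with a gap from -0.34 for the lowest TAKI liver down to -1.00 for the highest of the others. It rose in TAKI livers by 1.49 ± 0.20 over WT (SE, adjusted p = 0.00255), with all 5 TAKI livers higher, and TEKI livers lay 1.19 below TAKI livers (-1.19 ± 0.23, adjusted p = 0.0127). TEKI minus WT was 0.30 ± 0.23 (SE, adjusted p = 0.639).

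The call for Col9a2 held in each of the 26 settings run for TAKI minus WT, with differences from 1.25 to 1.65 and adjusted p from 0.000628 to 0.0164. It also held in the 26 run for TEKI minus TAKI, from -1.47 to -1.06 and adjusted p from 0.00302 to 0.0480. Its probe lies in row 98 of 532. Among all genes tested in TAKI minus WT, calls went with the place of the probe: rows 1 to 266 held 375 genes called higher and 5 lower, and rows 267 to 532 held 8 higher and 187 lower. After a correction for the row, the difference for Col9a2 was 1.44 (adjusted p = 0.00458). The TAKI arrays share no slide with the others, and the part of the slide in the Col9a2 value cannot be told apart from that of the genotype.

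The partner chains of Col9a2 were dim. Col9a1 and Col9a3 were each well above background on 8 arrays. Col9a1 differed by 0.72 ± 0.63 in TEKI minus WT and -0.46 ± 0.55 in TAKI minus WT, and Col9a3 by 0.01 ± 0.42 and 0.62 ± 0.37 in the same order (SE, adjusted p from 0.492 to 0.996). Of 6 cartilage and bone markers on the array, 2 were tested. Acan, the large proteoglycan of cartilage, differed by 0.60 ± 0.20 (SE, adjusted p = 0.390) in TEKI minus WT and 0.51 ± 0.17 (SE, adjusted p = 0.169) in TAKI minus WT. Sp7, a transcription factor of bone-forming cells, differed by 0.62 ± 0.43 (SE, adjusted p = 0.595) and -0.01 ± 0.37 (SE, adjusted p = 0.997) in the same order. The other 4 were well above background on fewer than 3 arrays each. The summed level of the 2 tested ranged from -2.31 to -1.65 in TEKI livers and -2.56 to -1.79 in TAKI livers, against -2.78 to -1.95 in WT livers.

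Type VI collagen forms beaded filaments between cells and fibrils. Col6a1 (chr10:76364050-76364109 on the - strand) had levels of -1.52, -0.72 and -1.43 in TEKI livers and -1.84, -0.65, -0.95, -0.71 and -0.66 in TAKI livers, against -0.76, -1.08, -0.78, -0.87 and -1.55 in WT livers. Col6a3 (chr1:90671098-90671157 on the - strand) had levels of -0.20, 0.62 and -0.34 in TEKI livers and -0.85, 1.01, 0.34, 1.15 and 0.55 in TAKI livers, against 0.59, 0.70, 0.58, 0.46 and -0.02 in WT livers. In both, TAKI1, TEKI1, TEKI3 and WT5 were the 4 lowest livers, and the genotypes overlapped. Col6a1 differed by -0.22 ± 0.30 in TEKI minus WT and 0.04 ± 0.26 in TAKI minus WT, and Col6a3 by -0.43 ± 0.40 and -0.02 ± 0.34 (SE, adjusted p from 0.709 to 0.989).

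Col6a2 (chr10:76251837-76251896 on the - strand) had levels of -1.94, -1.98 and -1.80 in TEKI livers and -3.71, -2.49, -2.85, -2.47 and -2.55 in TAKI livers, against -2.03, -2.44, -2.46, -2.04 and -2.05 in WT livers. Every TAKI liver lay below every WT liver, and every TEKI liver above every WT liver, so the 3 genotypes did not overlap on this probe. The difference was 0.30 ± 0.25 in TEKI minus WT and -0.61 ± 0.22 in TAKI minus WT (SE, adjusted p = 0.686 and 0.196), and 0.91 ± 0.25 in TEKI minus TAKI (adjusted p = 0.0893). None of the 3 passed. Without TAKI1 the TEKI minus TAKI difference was 0.69 and passed (adjusted p = 0.0332). Another probe of Col6a2, in row 235 and above background on all arrays, gave -0.02 in TEKI minus WT and 0.00 in TAKI minus WT, so the 2 probes of the gene disagreed.

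Col22a1, a fibril-associated collagen of tissue junctions, showed the widest disagreement. On its brightest probe (chr15:71951550-71951609 on the - strand, row 95) levels were -1.86, -4.09 and -4.02 in TEKI livers and -2.74, -2.52, -2.20, -2.62 and -2.20 in TAKI livers, against -3.15, -3.33, -3.34, -2.95 and -3.79 in WT livers. The TAKI livers lay above the WT livers, and TEKI1 lay above both while TEKI2 and TEKI3 lay below both. The difference was -0.01 ± 0.42 in TEKI minus WT and 0.86 ± 0.36 in TAKI minus WT (SE, adjusted p = 0.996 and 0.297). Its other probe, in row 521 and above background on 9 arrays, gave -1.47 in TAKI minus WT, of opposite sign. In TEKI minus TAKI this other probe gave 2.44 and the brightest -0.87, again of opposite sign. In TEKI minus WT the other probe gave 0.97, against -0.01 on the brightest. Over the 21 collagens with more than 1 usable probe, 23 further probes could be set against the brightest of the same gene. Of these, 14 (60.9%) had the sign of the brightest in TEKI minus WT, 16 (69.6%) in TAKI minus WT and 13 (56.5%) in TEKI minus TAKI.

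Collagens XII, XIV, XVI and XX are also of the fibril-associated kind, which lies along the fibrils of other collagens. Col14a1 (chr15:55583816-55583875 on the + strand) had levels of 2.55, 3.15 and 2.69 in TEKI livers and 2.69, 3.10, 2.99, 3.47 and 3.06 in TAKI livers, against 2.84, 3.25, 3.11, 2.91 and 2.63 in WT livers. Col16a1 (chr4:129543748-129543807 on the + strand) had levels of 0.30, 0.66 and 0.00 in TEKI livers and -0.29, 0.61, 0.32, 0.70 and 0.43 in TAKI livers, against 0.31, 0.41, 0.46, 0.42 and 0.18 in WT livers. Both followed Col1a1, with an r of 0.75 for Col14a1 and 0.93 for Col16a1. Col12a1 (chr9:79680905-79680964 on the - strand) had levels of -3.63, -3.38 and -3.58 in TEKI livers and -4.03, -3.41, -3.81, -3.17 and -3.48 in TAKI livers, against -3.66, -3.36, -3.38, -3.64 and -3.88 in WT livers. Col20a1 (chr2:181518278-181518337 on the + strand), the least studied of these, had levels of -3.52, -4.27 and -4.20 in TEKI livers and -4.18, -4.62, -4.23, -4.78 and -4.56 in TAKI livers, against -4.09, -4.06, -4.49, -4.24 and -3.88 in WT livers. In all 4 the genotypes overlapped in each comparison with WT. The 8 differences from WT lay between -0.32 and 0.16, and the adjusted p between 0.452 and 0.997.

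Col18a1, the precursor of endostatin and a product of hepatocytes in liver, had levels of 7.62, 7.77 and 8.04 in TEKI livers and 7.64, 7.39, 7.82, 7.44 and 7.63 in TAKI livers, against 7.69, 7.59, 7.79, 7.78 and 7.84 in WT livers. Its livers were close together, and the highest was TEKI3. The difference was 0.07 ± 0.13 for TEKI minus WT and -0.15 ± 0.11 for TAKI minus WT (SE, adjusted p = 0.876 and 0.598). Col15a1, its relative at the basement membranes of vessels (chr4:47326045-47326104 on the + strand), had levels of -2.13, -2.76 and -2.95 in TEKI livers and -3.25, -2.03, -2.64, -2.24 and -2.47 in TAKI livers, against -1.49, -2.41, -2.60, -2.38 and -1.91 in WT livers. The difference was -0.46 ± 0.31 for TEKI minus WT and -0.37 ± 0.27 for TAKI minus WT (SE, adjusted p = 0.589 and 0.608). The probe of Col18a1 lies at chr10:76707663-76707722 on the - strand.

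The transmembrane collagens XIII, XXIII and XXV act at the cell surface. Col13a1 (chr10:61356987-61357046 on the - strand) had levels of -0.90, -0.72 and -0.74 in TEKI livers and -0.79, -1.29, -0.47, -0.57 and -0.72 in TAKI livers, against -1.08, -1.19, -0.99, -1.06 and -0.51 in WT livers. Col23a1 (chr11:51537635-51537694 on the + strand) had levels of -3.34, -4.01 and -4.24 in TEKI livers and -4.31, -4.04, -3.65, -4.23 and -3.82 in TAKI livers, against -4.06, -3.95, -4.23, -4.22 and -3.86 in WT livers. Their groups overlapped, with differences between 0.05 and 0.20 from WT and adjusted p between 0.661 and 0.938. Col25a1, a brain collagen found in amyloid plaques, had levels of -3.10, -3.91 and -3.40 in TEKI livers and -3.75, -3.75, -3.42, -3.74 and -4.72 in TAKI livers, against -4.04, -4.49, -5.31, -3.99 and -3.26 in WT livers. The difference was 0.75 ± 0.41 for TEKI minus WT and 0.34 ± 0.35 for TAKI minus WT (SE, adjusted p = 0.487 and 0.738). All 3 TEKI livers were above 4 of the 5 WT livers, with WT5 above 2 of the TEKI livers.

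Col7a1, which anchors the epidermis to the dermis (chr9:108695073-108695132 on the + strand), had levels of -2.47, -3.15 and -3.47 in TEKI livers and -2.70, -2.90, -3.14, -3.59 and -3.61 in TAKI livers, against -3.34, -3.06, -3.55, -3.02 and -3.28 in WT livers. The difference was 0.22 ± 0.26 for TEKI minus WT and 0.06 ± 0.22 for TAKI minus WT (SE, adjusted p = 0.795 and 0.944). Col8a1, a short-chain collagen of vessel walls (chr16:57488371-57488430 on the - strand), had levels of -0.95, -1.00 and -1.29 in TEKI livers and -1.63, -0.41, -1.42, -0.35 and -0.77 in TAKI livers, against -0.63, -0.21, -1.19, -1.18 and -2.00 in WT livers. The difference was -0.04 ± 0.39 for TEKI minus WT and 0.13 ± 0.34 for TAKI minus WT (SE, adjusted p = 0.986 and 0.919). WT5 was the lowest and WT2 the highest liver for Col8a1, so that the WT livers alone spanned the range of all 13.

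The dim collagens add little. Col8a2 was well above background on 3 arrays, Col17a1 on 6, and Col10a1, Col19a1 and Col28a1 on 1, 2 and 0 and were not tested. Col8a2 differed by 0.99 ± 0.53 in TEKI minus WT and -0.07 ± 0.46 in TAKI minus WT, and Col17a1, the collagen of hemidesmosomes, by 0.33 ± 0.32 and 0.55 ± 0.28 (SE, adjusted p from 0.402 to 0.966). For both, the highest value of the 13 was that of TEKI1. Col4a3bp, the ceramide transfer protein counted apart, had levels of 3.07, 3.30 and 3.18 in TEKI livers and 3.37, 3.32, 3.06, 3.39 and 3.06 in TAKI livers, against 2.89, 3.76, 3.58, 3.53 and 3.37 in WT livers. The difference was -0.24 ± 0.17 for TEKI minus WT and -0.19 ± 0.15 for TAKI minus WT (SE, adjusted p = 0.613 and 0.646).

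The genes that make, hold, sense and remove collagen were read through lists chosen with earlier results of these data known. In TAKI minus WT and in TEKI minus WT, 0 members of any of the 7 pathway lists were called. The counts of positive differences below stand beside 62.5% of all genes tested in TEKI minus WT and 50.4% in TAKI minus WT. Among hydroxylases, chaperones and export factors of procollagen, 9 of 19 tested had a positive difference in TEKI minus WT and 7 of 19 in TAKI minus WT (medians 0.00 and -0.04). The smallest p-values were those of P3h2, a prolyl 3-hydroxylase, at 0.63 ± 0.36 (SE, adjusted p = 0.508), and Mia2, a cargo receptor of the export sites, at -0.22 ± 0.14 (SE, adjusted p = 0.560) in TEKI minus WT. The TAKI minus WT list began with P3h1, another prolyl 3-hydroxylase, at -0.34 ± 0.15 (SE, adjusted p = 0.313), and with Fkbp14, a prolyl isomerase, at 0.26 ± 0.14 (SE, adjusted p = 0.424).

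Among the enzymes of propeptide cleavage and crosslinking, 6 of 12 had a positive difference in TEKI minus WT and 7 of 12 in TAKI minus WT (medians 0.03 and 0.01). Loxl3, a lysyl oxidase, stood at 0.78 ± 0.33 (SE, adjusted p = 0.418) and Furin, a proprotein convertase, at -0.23 ± 0.13 (SE, adjusted p = 0.510) in TEKI minus WT. Bmp1, the C-proteinase of procollagen I, stood at -0.21 ± 0.15 (SE, adjusted p = 0.573) and Tgm2, tissue transglutaminase, at -0.30 ± 0.21 (SE, adjusted p = 0.587) in TAKI minus WT. Of 10 collagen receptors, 3 had a positive difference in TEKI minus WT and 6 in TAKI minus WT (medians -0.07 and 0.02). They were led by Gp6, the platelet receptor, at 0.81 ± 0.30 (SE, adjusted p = 0.390), and Mrc1, the mannose receptor, at 0.26 ± 0.17 (SE, adjusted p = 0.560) in TEKI minus WT. For TAKI minus WT, Mrc1 stood at 0.23 ± 0.15 (SE, adjusted p = 0.539) and Itga11, a collagen-binding integrin subunit, at 0.30 ± 0.23 (SE, adjusted p = 0.637).

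Of 12 genes of collagen degradation and its inhibitors, 6 had a positive difference in TEKI minus WT and 3 in TAKI minus WT (medians -0.03 and -0.12). Mmp9, a gelatinase, stood at 1.23 ± 0.40 (SE, adjusted p = 0.390) in TEKI minus WT. Timp4, an inhibitor of metalloproteinases, had levels of -3.06, -3.90 and -3.64 in TEKI livers and -5.27, -4.95, -5.58, -6.34 and -5.94 in TAKI livers, against -4.63, -4.49, -5.07, -3.79 and -3.53 in WT livers. Its probe was well above background in 3 of 3 TEKI, 0 of 5 TAKI and 4 of 5 WT livers. The group means were -3.53 in TEKI and -5.62 in TAKI livers, with a lower bound of 4.02-fold between them. This bound concerns the means and is no limit for single livers or for sampling error. Timp4 was called higher in TEKI than in TAKI livers (limma, adjusted p = 0.0102), against 2.48% of all genes called higher. In TAKI minus WT, where it was the first of its list, its adjusted p was 0.0604, and its second was Timp3, another inhibitor, at 0.21 ± 0.17 (SE, adjusted p = 0.643). Against WT, TEKI livers had 0.77 ± 0.38 (SE, adjusted p = 0.454) for Timp4. Its probe lies in row 496, where calls lower in TAKI livers gathered.

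Of 21 partners of fibrils, 10 had a positive difference in TEKI minus WT and 17 in TAKI minus WT (medians -0.03 and 0.14, against 0.07 and 0.00 over all genes). Eln, elastin, stood at 0.66 ± 0.19 (SE, adjusted p = 0.390) in TEKI minus WT and 0.37 ± 0.16 (SE, adjusted p = 0.329) in TAKI minus WT. Fbn2, a fibrillin above background on 6 arrays, stood at 1.36 ± 0.68 (SE, adjusted p = 0.455) in TEKI minus WT, and Fbln2, a fibulin, at 0.29 ± 0.18 (SE, adjusted p = 0.537) in TAKI minus WT. Of 18 basement membrane partners, 8 and 10 had a positive difference (medians -0.02 and 0.07). These were led by the laminin chains Lama1 at 0.34 ± 0.14 (SE, adjusted p = 0.418) and Lama3 at 0.64 ± 0.39 (SE, adjusted p = 0.540) in TEKI minus WT. Against WT, TAKI livers had Smoc1, a calcium-binding matrix protein, at -0.24 ± 0.11 (SE, adjusted p = 0.362) and the laminin chain Lamc3 at 0.76 ± 0.41 (SE, adjusted p = 0.441), as the first of the list.

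Transforming growth factor beta drives collagen transcription in stellate cells. Of 19 genes of its axis, 6 had a positive difference in TEKI minus WT and 15 in TAKI minus WT (medians -0.09 and 0.09). Among all genes tested, 62.5% and 50.4% were positive, in the same order. Smad7, the inhibitory SMAD, stood at -0.66 ± 0.26 (SE, adjusted p = 0.393) and Ltbp1, which holds the latent ligand in the matrix, at 0.97 ± 0.39 (SE, adjusted p = 0.402) in TEKI minus WT. Tgfbr3, betaglycan, stood at 0.37 ± 0.24 (SE, adjusted p = 0.557) and Smad4, the shared partner of the SMADs, at -0.13 ± 0.09 (SE, adjusted p = 0.576) in TAKI minus WT. None passed the threshold.

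Markers of other cells that a liver sample can hold were read beside the collagens. Of the 9 cell marker lists, 1 held a called gene: Tnnc2, a troponin of fast skeletal muscle, with levels of -1.84, -3.05 and -2.73 in TEKI livers and -4.56, -5.42, -3.73, -4.62 and -4.59 in TAKI livers, against -3.25, -3.58, -3.43, -3.11 and -2.55 in WT livers. It fell in TAKI livers by 1.40 on the log2 scale (adjusted p = 0.0384), the only 1 of the 5 muscle markers tested that was called, against 0.942% of all genes called lower, and its probe lies in row 526. Of the 5, 3 had a positive difference in TAKI minus WT and the median was 0.54, so the list did not move with Tnnc2. Myh1, a fast myosin heavy chain, stood at 1.29 ± 0.37 (SE, adjusted p = 0.0960). TEKI livers lay above TAKI livers by 2.05 ± 0.37 for Tnnc2 (SE, adjusted p = 0.00876). For the 9 liver endothelial markers the summed level ranged from 4.93 to 5.23 in TEKI livers and 4.85 to 5.10 in TAKI livers, against 4.52 to 4.89 in WT livers. In this summed level the TEKI livers lay above all WT livers. For the 6 cholangiocyte markers it was 3.78 to 4.96 and 3.22 to 6.08, against 3.11 to 5.75, and for the 5 mesothelial markers -1.78 to -0.04 and -1.12 to -0.22, against -1.32 to 0.30, in the same order of groups. The 6 pancreatic markers ran from 0.49 to 0.74 in TEKI livers and 0.07 to 0.53 in TAKI livers, against -0.33 to 0.29 in WT livers, so that TEKI livers lay above all WT livers, with 0 called. Their part in the collagen levels was not tested.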

How the data were processed

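RNA of 13 livers (500 ng each) was labelled with Cy3 and hybridised to 1-colour Agilent arrays, per the labels. Per the file headers the authors scanned and quantified the spots with Feature Extraction (9.5 per the submitters' processing notes), and the deposited intensity is the processed signal, background-subtracted with spatial and multiplicative detrending, not normalized between arrays. The deposited value table equals these intensities (largest difference 0), so its scale is linear and uncentred. Its column medians were 137, 66.3 and 56.1 for TEKI1 to TEKI3, 70.1, 73.4, 72.6, 94.5 and 90.5 for TAKI1 to TAKI5, and 66.1, 72.9, 49.1, 64.8 and 58.0 for WT1 to WT5.

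Here, spots of a probe were averaged without control spots and outlier flags, scaled to the 75th percentile of the array and tested on the log2 scale with limma (lmFit and eBayes, version 3.58.1, R 4.3.3; 10 residual degrees of freedom). The brightest probe stood for a gene. Probes were named by RefSeq accession (22891), symbol (6638) or synonym (3104), otherwise as in the file (8455), and collagens by the file's own name. Probe coordinates are those of the files (build mm7), and no annotation of that build was used here. Correlations used 100000 permutations (86400 within genotype). Python 3.11.15 with numpy 2.4.6, pandas 2.3.3, scipy 1.17.1 and matplotlib 3.10.9 made the tables and figures. The number of arrays limits the precision.

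The members and gene lists were chosen with earlier results of these data known. Named genes were every gene of the rule, Sirt1, and from each pathway list those past the threshold and those with the 2 smallest p-values in TAKI minus WT or TEKI minus WT. Members well above background on all arrays were given liver by liver. The labels number the livers of each genotype, but livers of the same number did not deviate together (correlations from -0.23 to 0.32), and the numbers were not taken as pairs. The model script was first tested on simulated data. Alternatives were other scalings and backgrounds, filters, probes, weights, a correction for the array row, slides and replicates as blocks, and leaving out each array.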

Additional observations from a re-analysis of the deposited data

Results flagged for a closer look

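In each genotype with 5 livers, the highest and lowest level of every collagen gene tested were checked for distance from the rest (70 groups, of which about 3.5 would stand out by chance). In all, 7 levels stood apart, and they came from TAKI1, TAKI3, TAKI5 and WT5. In WT5, Col1a1 was at 0.75 where the other 4 WT livers lay between 1.98 and 2.23, and Col4a1 at -0.0610 where they lay between 0.80 and 0.99. In TAKI1, Col6a1 was at -1.84 (others -0.95 to -0.65), Col17a1 at -5.44 (others -4.89 to -4.71) and Col27a1 at -1.26 (others -2.33 to -2.13). Col11a1 was at -2.86 in TAKI3 (others -3.68 to -3.47), and Col25a1 at -4.72 in TAKI5 (others -3.75 to -3.42). WT5 and TAKI1 account for 5 of the 7. Groups also differed for Col9a2, where the 2 knock-in effects were unlike: TEKI minus TAKI, which is the difference between the effects on a shared WT group, was -1.19 (limma, adjusted p = 0.0127), with all 3 TEKI livers below all 5 TAKI livers.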

How the results depend on the processing

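Col9a2 kept its direction and its call in all 26 settings run for TAKI minus WT and in all 26 for TEKI minus TAKI. The count of collagens called in TAKI minus WT was 1, and 2 under median scaling, normexp with quantile normalization, an intensity trend and the row correction, 3 with only the 2 groups compared and 4 with array weights. Leaving out 1 array gave 1 to 3 (3 without TEKI1, 2 without TEKI2, otherwise 1). Col4a6 was among the added genes each time, with Col22a1 under array weights, with only the 2 groups and without TEKI1, and Col2a1 under array weights. In TEKI minus TAKI the count was 1, and 3 under median scaling, 4 with normexp background, 2 with array weights, 2 with the row correction and 1 to 3 with an array left out (2 without TAKI1, 3 without TEKI1). In TEKI minus WT it was 0 in all 28 settings, 0 also at each array left out. The cause of these changes was not tested. Over all genes, 575 were called in TAKI minus WT and 254 to 2253 under the alternatives, 704 in TEKI minus TAKI and 296 to 2871, and 1 in TEKI minus WT and 0 to 93. By setting, TAKI minus WT had 999 with median scaling, 888 with normexp and quantile, 520 with the trend and 815 with the row correction. It had 1333 with only the 2 groups, 2253 with array weights, 1312 without TEKI1 and 794 without TEKI2. TEKI minus TAKI had 1024 with median scaling, 2871 with normexp background, 934 with array weights and 930 with the row correction. It had 1099 without TEKI1 and 615 without TAKI1.

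Median scaling moved the class medians of TEKI minus WT to -0.50 (fibrillar), -0.41 (basement membrane) and -0.31 (other), the row correction to -0.40, -0.32 and -0.21, and the slide as a fixed block, which leaves the contrast within slide 3, to 0.37 and 0.36 for the first 2. Over all genes, the medians under median scaling and under the row correction were -0.36 and -0.26. Quantile normalization gave -0.15 and normexp with quantile -0.10 for the other class. In TEKI minus TAKI the row correction gave -0.31 (basement membrane) and -0.37 (other), median scaling -0.30, quantile normalization -0.23, normexp background 0.17 and the mean of all probes 0.18 (other). With an array left out, the class medians ranged from -0.20 to 0.28 over the 3 comparisons.

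Among named genes that were never called, signs turned. In TAKI minus WT, Col1a2 gave 0.00894 with normexp and quantile and 0.0274 with array weights, Col3a1 -0.13 with median scaling and -0.0196 with the row correction, Col4a2 0.0279 with normexp background and 0.0354 with normexp and quantile, and Col1a1 0.17 with the mean of all probes. With an array left out they ranged from -0.26 to 0.28 for Col1a2, -0.26 to 0.46 for Col3a1, -0.22 to 0.0299 for Col4a2 and -0.62 to 0.19 for Col1a1. In TEKI minus WT, Col4a4 gave -0.16 with median scaling, -0.0614 with the row correction and -0.0205 within slide 3, and Col3a1 0.0574 with the mean of all probes. Within slide 3, an alternative chosen after seeing the data, and with the slide as a fixed block, Col1a1 gave 0.26, Col1a2 0.33, Col3a1 0.50, Col4a1 0.61 and Col4a2 0.36. In TEKI minus TAKI, where single genes were followed for Col9a2 and Col6a2, neither turned sign.

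With the replicate number as a block, the counts of collagens called were 0 in TEKI minus WT, 1 in TAKI minus WT and 1 in TEKI minus TAKI, and Col9a2 in TAKI minus WT had an adjusted p of 0.0164. The block changed no other call of a collagen. Dim probes and the small number of TEKI livers limit the precision: 10 of the 40 collagen genes were not well above background on every array.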
